A study of Brassica napus with 36 samples.

Results

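The 40S subunit is the small subunit of the cytosolic ribosome, and the loci described here are those of oilseed rape (Brassica napus) whose Swiss-Prot match is a 40S ribosomal protein and whose read count was at least 10 in all 36 libraries. The text was carried by 428 of the 106340 genes in the table, and 315 of them met the count rule. The small subunit binds the messenger RNA and reads its codons, while the large 60S subunit joins amino acids. Both are built in the nucleolus from ribosomal RNA and a fixed set of proteins, and in plants each protein is encoded by several active gene copies, so an allotetraploid such as oilseed rape, with an A and a C subgenome, holds many loci for each. Synthesis of ribosomal proteins is one of the large costs of a growing leaf, and translation slows in the cold.

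The study compared leaves of 2 rapeseed varieties, HX17 and HX58, both early-maturing and semi-winter types that differ in cold tolerance. CA and FA plants were acclimated for 14 days at 4 °C and then held for 12 h at 4 °C (CA) or -4 °C (FA). CB and FB plants had no acclimation and went straight to 12 h at 4 °C (CB) or -4 °C (FB), and MA and MB plants were the controls of the acclimated and the unacclimated arm, kept at growth temperature throughout. Each of the 12 groups had 3 libraries of the third leaf from the top, with 32214015 to 59290772 counts per library. The methods do not state whether a leaf sample pooled several plants. At these depths all 315 loci passed the filter on low counts in every comparison.

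The members were chosen by their annotation and by their counts in the same libraries that are compared here, so a locus that dropped under 10 counts in any library was left out, and the counts of members are a description of loci that stayed above that level everywhere. Of the 113 loci left out, 33 had no read in any library, and the median of their mean levels was 0.0581 FPKM (the authors' unit, a count divided by gene length and by library total). Just inside the rule were BnaA01g08080D (S21-2) and BnaC03g74030D (S19, mitochondrial), each with a lowest count of 10, and just outside were BnaA05g33460D (S7) and BnaAnng36700D (S23-2), each with a lowest count of 9. The cytosolic label rests on the Swiss-Prot text that also chose the loci, and it was not checked otherwise. By that text 308 loci are cytosolic. The other 7 carry the names of the mitochondrial S10 and S19 proteins, which serve the ribosome of the mitochondrion, and they are reported apart where they differ. The match was weak (e-value over 1e-10) at 2 members, and gene lengths ran from 138 to 3828 bases. The 308 cytosolic loci fall into 32 protein families from S2 to S30, S3a, S15a, S27a and SA. By chromosome name 164 of the 315 lie in the A and 151 in the C subgenome, 54 of them on unplaced scaffolds. Coordinates are those of the Genoscope assembly as the table gives them, and the table marks no exons, introns or UTRs. Its gene lengths are multiples of 3 for every member, so they are coding lengths. Copies of 1 protein in the A and C subgenomes can be near identical, so reads may have been split between them and the value of a single locus is less certain than that of its family.

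As a group the members were among the abundant messages of the leaf. Their median level over all libraries was 96.3 FPKM, against 7.92 FPKM for the 33270 genes with at least 10 counts everywhere. The highest was BnaA01g07470D (S30; A01, 3478168 to 3479074), whose mean over the 36 libraries was 717 FPKM, followed by BnaC03g01450D (S28-1; C03, 678352 to 678546) at 639.8 FPKM. Then came 2 loci of S29, a zinc-binding protein of the subunit head, with means of 509.5 FPKM for BnaA03g50690D and 508 FPKM for BnaA01g03150D. The lowest was the mitochondrial S19 locus BnaC03g74030D at 1.21 FPKM. In HX58_MB the leading S30 locus stood at 308, 239 and 217 FPKM, in HX58_CB at 1759.9, 1882 and 1546 FPKM, and in HX58_FB at 1092, 931 and 1641 FPKM. No library of either cold group reached down to a control library. Summed over families, S30 (12 loci) and S29 (8 loci) had the highest mean levels, 2591 and 2539 FPKM, and SA (8 loci), the protein also known as the laminin receptor homologue, had the lowest of the cytosolic families with 537 FPKM.

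Taken as a share of all counts in a library, the 315 loci took 0.989%, 1.26% and 1.06% in HX17_MB, 2.71%, 2.61% and 2.18% in HX17_CB, and 2.79%, 2.30% and 3.03% in HX17_FB. In HX58 they took 0.926%, 0.871% and 0.777% in MB, 3.90%, 5.41% and 4.51% in CB, and 3.88%, 3.41% and 3.95% in FB. Unacclimated cold libraries were above every control library in both varieties, and those of HX58 were above those of HX17. The mean share was 2.26 times the control in HX17_CB, 2.45 times in HX17_FB, 5.37 times in HX58_CB and 4.37 times in HX58_FB. After acclimation the share was smaller: 1.71% ± 0.38 (SD, n = 3) in HX17_CA and 1.34% ± 0.015 in HX58_CA, against 1.20% ± 0.093 in HX17_MA and 0.881% ± 0.20 in HX58_MA. Every CA library was still above every MA library of its variety. In FA the share was 0.947% ± 0.32 in HX17 and 1.07% ± 0.024 in HX58, and both overlapped MA.

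**Figure D1:**
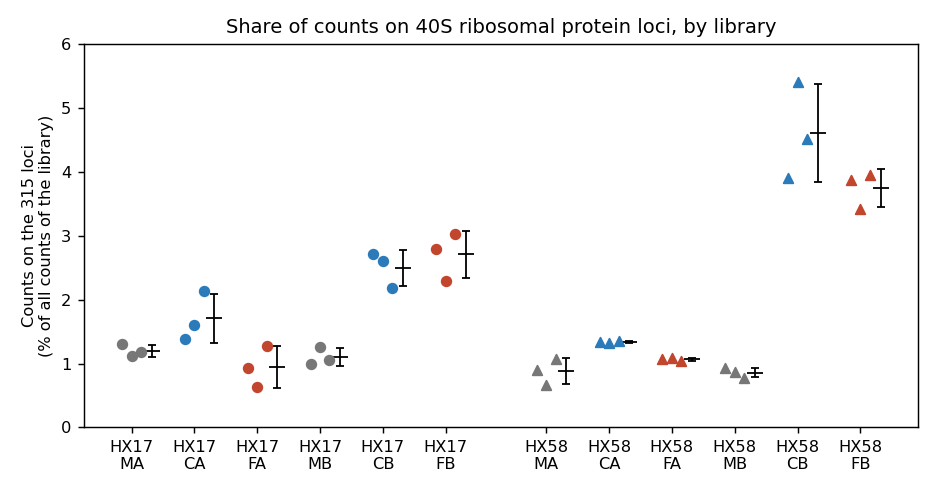
Share of all counts of a library that fell on the 315 loci (percent, y axis) in the 12 groups (x axis); points are libraries (circles HX17, triangles HX58; grey controls, blue 4 °C, red -4 °C) and bars the mean ± SD of 3 libraries. The 6 unacclimated cold libraries of HX58 lie between 3.41% and 5.41%, above all other libraries.

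Chilling without acclimation (CB against MB) raised 40S loci in both varieties, and more of them in HX58. A locus was called when its change was at least 2-fold and its adjusted p under 0.005 (edgeR's quasi-likelihood test, Benjamini-Hochberg over all genes tested). In HX58_CB 296 of the 315 loci were called higher and 1 lower, while of all genes tested 14.2% were called higher and 11.8% lower. The median log2 fold change of the members was 2.38, against -0.02 over all genes tested. In HX17_CB 81 were called higher, with 5.98% of all genes called higher and 8.19% lower. Here the median of the members was 0.89, against 0.01 over all genes tested. None was called lower in HX17_CB by edgeR, with 5 fitted lower at an unadjusted p under 0.05 and 1 called lower by DESeq2. Of the 81 loci called higher in HX17, 80 were also called higher in HX58, 98.8% of the HX17 loci and 27% of the HX58 loci. The HX58 count kept its size when any 1 library was left out (266 to 300 called). The HX17 count did not: leaving out HX17_CB1 gave 25 calls, HX17_CB2 24, HX17_MB1 2 and HX17_MB3 7 (a digit after a group name is the replicate), although the median stayed between 0.79 and 1.04. With MA as the control it was 15.

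The largest rise in HX58_CB was that of BnaA09g06070D (S20-2; A09, 2946963 to 2947652), a copy of a protein of the subunit head. It stood at 3.10, 4.11 and 3.58 FPKM in HX58_MB and at 67.6, 151 and 104 FPKM in HX58_CB. The groups were far apart, and the log2 fold change was 4.93 (SE 0.42, adjusted p = 5.11e-05, edgeR). In HX17 the same locus went from 5.38, 7.76 and 6.25 FPKM in MB to 38.1, 34.7 and 25.2 FPKM in CB, a log2 fold change of 2.11 (adjusted p = 0.000645, edgeR). Next in HX58 was BnaC02g39820D (S21-2; C02, 42741252 to 42741727), with 6.89, 11.6 and 4.86 FPKM in MB and 116, 150.4 and 129 FPKM in CB (log2 fold change 4.1, SE 0.33). In HX17_CB the largest rise was that of BnaCnng31130D (S13-2; unplaced C scaffold, 29500272 to 29501393). Its level was 2.94, 5.24 and 3.39 FPKM in MB and 48.1, 33.3 and 29.2 FPKM in CB, with no overlap (log2 fold change 3.03, SE 0.32, adjusted p = 0.000328, edgeR). The second was an S30 locus, BnaC08g36580D (C08, 33786065 to 33787034), with 43.4, 50.4 and 37.6 FPKM in MB and 303, 341 and 201 FPKM in CB (log2 fold change 2.46, SE 0.25). Both calls held without any 1 library.

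Freezing without acclimation (FB against MB) raised most 40S loci in both varieties. In HX58_FB 297 were called higher and 3 lower, with 16.1% of all genes tested called higher and 13.6% lower, and the median log2 fold change was 2.10 against 0.01 over all genes. In HX17_FB 209 were called higher and 1 lower, with 12.8% and 13.3% of all genes, and the median was 1.26 against -0.04. Of the 209, 208 were called higher in HX58_FB too (99.5% of the HX17 loci and 70% of the HX58 loci). Leaving out HX17_MB1 reduced the HX17 count to 69 and leaving out HX17_MB3 to 84, and with MA as control it was 100. In HX58 it stayed between 285 and 298. CB and FB share the MB libraries within a variety, so their values are given side by side and not counted together.

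In HX58_FB BnaA09g06070D (S20-2) again rose most, to 77.0, 65.9 and 62.6 FPKM (log2 fold change 4.22, SE 0.20, adjusted p = 9.8e-06, edgeR). It was followed by BnaA03g57330D (S16-3; unplaced A03 scaffold, 1099284 to 1099724), from a family whose tail reaches the tRNA in the P site. Its level was 12.6, 12.3 and 10.6 FPKM in HX58_MB and 204, 169 and 189 FPKM in HX58_FB, and every FB library was far above every MB library (log2 fold change 3.96, SE 0.19). In HX17_FB the largest rises were those of BnaCnng31130D (S13-2), which reached 43.5, 41.3 and 82.0 FPKM (log2 fold change 3.88, SE 0.35), and BnaC03g72450D (S27a-3; unplaced C03 scaffold, 723629 to 724102). S27a is made as a fusion with ubiquitin and cut free. BnaC03g72450D stood at 63.7, 112 and 66.1 FPKM in HX17_MB and at 701, 474 and 763 FPKM in HX17_FB (log2 fold change 3.04, SE 0.32, adjusted p = 0.000106, edgeR).

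**Figure D2:**
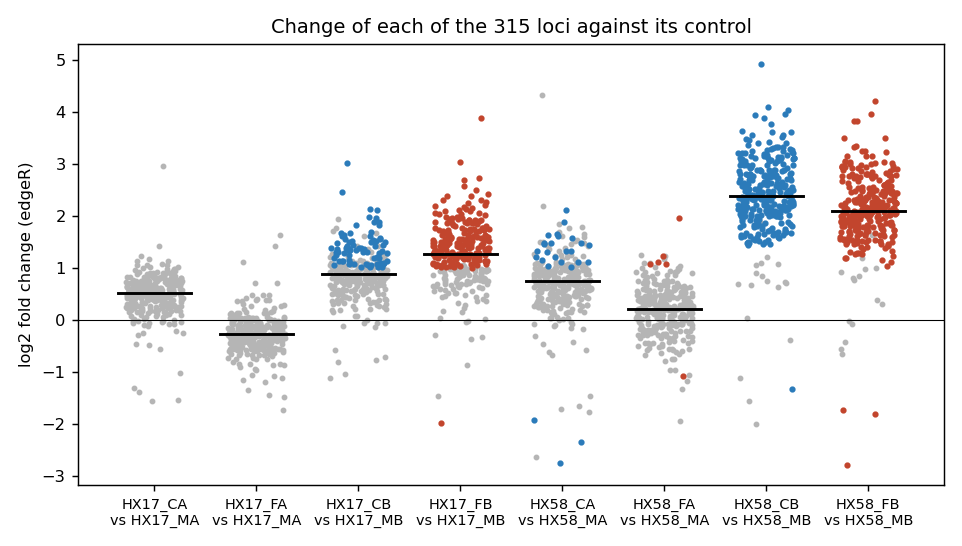
Log2 fold change (edgeR, y axis) of each of the 315 loci in the 8 comparisons of a cold group with its control (x axis); coloured points were called, grey points were not, and black bars are medians. In HX58_CB and HX58_FB nearly all points are coloured and lie around medians of 2.38 and 2.10, and after acclimation the medians lie between -0.28 and 0.74.

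Of the marker lists for other leaf functions, those of mesophyll and of dividing cells differed between MB and the unacclimated cold groups in both varieties. So did that of root endodermis, at a far lower level. Genes of mesophyll photosynthesis (Rubisco small chains and chlorophyll-binding proteins; 92 loci, of which 4 had no read in any library) took 13% to 14.5% of counts in HX17_MB, 6.75% to 8.75% in HX17_CB and 7.31% to 11.7% in HX17_FB. In HX58 they took 9.98% to 14.8% in MB, 5.88% to 7.71% in CB and 6.26% to 8.83% in FB. Genes of dividing cells (88 loci, 8 with no read anywhere) took 0.0157% to 0.0168% in HX17_MB, 0.0294% to 0.0373% in HX17_CB, 0.0139% to 0.0144% in HX58_MB and 0.0548% to 0.0625% in HX58_CB. Of their 23 loci with at least 10 counts everywhere, 10 were called higher and 1 lower in HX17_CB (5.98% and 8.19% of all genes), and 17 were called higher in HX58_CB (14.2% of all genes). Markers of other cells were low: the 23 listed loci of root endodermis took at most 0.00124% of counts (13 at 0 in all libraries), the 12 of epidermis at most 0.00664% (1 at 0), and the 15 of senescing leaf at most 0.00417% (7 at 0). The root endodermis share was 0.00036% to 0.00045% in HX17_MB, 0.00023% to 0.00032% in HX17_CB and 0.00011% to 0.00018% in HX17_FB. In HX58 it was 0.00075% to 0.00095% in MB, 0.00026% to 0.00065% in CB and 0.00012% to 0.00021% in FB. Its 1 locus with at least 10 counts everywhere was called lower in HX17_FB and HX58_FB (13.3% and 13.6% of all genes). In CB edgeR called it in neither variety, with an unadjusted p under 0.05 in both. The 4 phloem loci took 0.00697% to 0.0159% in HX17_MB and 0.0254% to 0.0773% in HX17_FB, where 3 were called higher (12.8% of all genes). In HX17_CB edgeR called 0 of the 4 (median log2 fold change 0.89), with 2 at an unadjusted p under 0.05 and 1 called by DESeq2. In HX58_CB and HX58_FB edgeR called 0, with 0 at an unadjusted p under 0.05 and 0 by DESeq2, and medians of -0.31 and 0.02. The part of these lists in the 40S result was not tested, and in leaf RNA fewer cells of a type and less RNA per cell cannot be told apart. Without the mesophyll genes in the denominator, the mean 40S share was 0.971% in HX58_MB and 4.93% in HX58_CB, and 1.28% in HX17_MB and 2.71% in HX17_CB. As a check of the treatment, all 5 cold-regulated loci with at least 10 counts everywhere were called higher in HX17_CB, HX17_FB, HX58_CB and HX58_FB.

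After acclimation fewer 40S loci passed the test than without it. In HX58_CA 23 were called higher and 3 lower (2.60% and 2.77% of all genes tested), and the median log2 fold change was 0.74. The count fell whichever library was left out: without HX58_CA1 it was 2, HX58_CA2 2, HX58_CA3 1, HX58_MA1 2, HX58_MA2 14 and HX58_MA3 15. The median stayed between 0.56 and 0.86. Such a fit has 1 replicate fewer, and its loss of power was not separated from the weight of the library left out. DESeq2 called 75 and the fit with the MB control 104. An unadjusted p under 0.05 was reached by 226 loci in HX58_CA, 217 of them fitted higher. The highest of the 23 were BnaCnng54330D (S27-2) with a log2 fold change of 2.11 and BnaA03g57330D (S16-3) with 1.88. In HX17_CA edgeR called none in either direction, with 0.608% of all genes called higher and 0.449% lower. There 149 loci had an unadjusted p under 0.05, 145 of them fitted higher, DESeq2 called 7, and the median was 0.52.

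Freezing of acclimated plants left the loci closest to their control. In HX58_FA 5 were called higher and 1 lower, a share below that of all genes tested (9.42% higher and 7.26% lower), with a median log2 fold change of 0.20. The highest was BnaC07g30590D (S11-3; C07, 34995355 to 34998240), with 2.74, 2.37 and 5.32 FPKM in HX58_MA and 20.7, 7.58 and 11.8 FPKM in HX58_FA (log2 fold change 1.95, SE 0.39, adjusted p = 0.00432, edgeR), a call that held in 2 of the 6 fits with 1 library left out. The count of 6 became 1 on leaving out HX58_FA1, 1 for HX58_FA2, 0 for HX58_FA3, 3 for HX58_MA1 and 12 for HX58_MA3. In HX17_FA edgeR called none (5.26% of all genes higher, 2.63% lower). There 29 loci had an unadjusted p under 0.05, 27 of them fitted lower, DESeq2 called 5, and the median was -0.28.

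Freezing was also compared directly with chilling. In HX58 more loci were called after acclimation than without it, while in HX17 edgeR called 1 locus after acclimation and none without. The percentage of all genes called was also larger after acclimation, in each direction and in both varieties. The higher count in HX58 is therefore not by itself a feature of these loci. In acclimated HX58 (FA against CA) 44 loci were called lower and 4 higher, with 7.56% and 8.40% of all genes, and the median log2 fold change was -0.58. Among the called loci the 2 with the largest falls were both of S27a-1: -2.38 for BnaC05g18740D and -2.25 for BnaA09g31060D. The 44 lower loci came from 19 families, with 5 of S27a and 4 each of S5, S19 and S30. In acclimated HX17 the median was lower still, -0.82, and 195 loci were fitted lower at an unadjusted p under 0.05. Yet edgeR called only 1 locus, higher (3.35% of all genes were called higher and 0.867% lower), and DESeq2 called 1 higher and 14 lower. That 1 locus was BnaC04g06970D (S11-3; C04, 5083144 to 5084599), at 2.00, 2.02 and 3.05 FPKM in HX17_CA and 13.8, 12.4 and 17.9 FPKM in HX17_FA (log2 fold change 2.71, adjusted p = 0.000532, edgeR). In HX58 it was also the member that rose most from CA, 1.38, 2.01 and 2.84 FPKM, to FA, 16.7, 9.52 and 13.4 FPKM (log2 fold change 2.55, adjusted p = 0.000295, edgeR). The groups overlapped in neither variety, and in both the locus had the opposite sign to the median of the members.

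Without acclimation freezing and chilling were close. In HX58 (FB against CB) 1 locus was called higher, the mitochondrial S10 locus BnaC05g30250D (log2 fold change 1.29), and none lower (2.57% and 0.352% of all genes). The call was lost in each of the 6 fits with 1 library left out. There 22 were fitted lower at an unadjusted p under 0.05 and DESeq2 called 1 lower. In HX17 edgeR called none (2.38% and 0.467% of all genes), with 112 fitted higher and 2 lower at an unadjusted p under 0.05 and 1 called by DESeq2. The medians were 0.40 in HX17 and -0.25 in HX58.

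The control groups of the arms, MB against MA, gave no call by edgeR in HX17 (0.864% of all genes higher, 0.239% lower) or in HX58 (0.00563% and 0.00938%). In HX17 106 loci were fitted lower in MB at an unadjusted p under 0.05, DESeq2 called 4, and the median was -0.40. In HX58 35 had an unadjusted p under 0.05, DESeq2 called 1, and the median was -0.14. The largest difference was that of BnaAnng13180D (S4-1; unplaced A scaffold, 14166989 to 14167511), which stood at 26.9, 25.6 and 28.1 FPKM in HX58_MA and at 5.73, 5.36 and 8.88 FPKM in HX58_MB (log2 fold change -2.13, adjusted p = 0.0168, edgeR). The groups did not overlap, but the threshold was missed.

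Between the varieties the loci were on the whole lower in HX58 at growth temperature. In MA 47 were called lower in HX58 and 7 higher (5.37% and 5.32% of all genes), with a median log2 difference, HX58 minus HX17, of -0.67. In MB 47 were called lower and 12 higher (10.1% and 8.63%), with a median of -0.50. The MA count of 54 fell to 28 on leaving out HX17_MA1, 33 for HX17_MA3 and 26 for HX58_MA1, and the MB count of 59 fell to 39 on leaving out HX58_MB1. The largest difference was at BnaC01g39890D (S3a; C01, 38361348 to 38362878), a protein of the subunit platform. It had 78.6, 71.0 and 80.7 FPKM in HX17_MA and 2.22, 2.60 and 2.32 FPKM in HX58_MA (log2 difference -5.17, SE 0.23, adjusted p = 2.87e-06, edgeR), and -4.86 in MB. In the opposite direction BnaA05g27160D (S5-1; A05, 19636502 to 19637650) had 0.581, 1.15 and 0.850 FPKM in HX17_MA and 13.9, 12.4 and 11.2 FPKM in HX58_MA (log2 difference 3.72, SE 0.34). BnaC09g10020D (S30; C09, 6641806 to 6642594) had 5.17, 4.31 and 5.55 FPKM in HX17_MB and 65.6, 62.4 and 80.1 FPKM in HX58_MB (log2 difference 3.71, SE 0.25). These differences were each larger than the spread within a group, and all 3 calls held without any 1 library. When counts were summed over loci of the same Swiss-Prot name, the last 2 turned round, to -0.79 for S5-1 and -0.51 for S30, so these loci and the summed message of their names had opposite signs. Whether a sequence difference between the varieties moved reads between copies was not tested.

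Most loci were fitted with a larger rise in HX58 than in HX17, and for chilling the difference itself passed the test at part of them. The interaction of variety and CB was called at 59 loci, all larger in HX58, with 1.41% of all genes called in that direction and 0.510% in the other. None was called in the other direction by edgeR, with 0 at an unadjusted p under 0.05 and 0 by DESeq2. The median log2 difference of changes was 1.48, and 307 of the 315 loci were fitted with the larger change in HX58. The count moved with the library left out, from 4 without HX58_MB1 or HX58_MB2 to 115 without HX58_CB1, the only omission that raised it. It was 10, 9 and 17 for HX17_MB1, HX17_MB2 and HX17_MB3, 23, 16 and 11 for HX17_CB1, HX17_CB2 and HX17_CB3, 39 and 13 for HX58_CB2 and HX58_CB3, and 28 for HX58_MB3. The median stayed between 1.20 and 1.63. S3a held 8 of the 59 loci and S12 held 5.

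The largest difference was at BnaC05g42400D (S17-3; C05, 39787427 to 39787846). In HX17 its level was 10.5, 11.2 and 11.1 FPKM in MB and 21.2, 11.5 and 7.16 FPKM in CB, and these overlapped. In HX58 it was 3.14, 5.58 and 2.95 FPKM in MB and 24.8, 35.1 and 32.3 FPKM in CB, and these did not. The log2 difference of changes was 2.92 (SE 0.52, adjusted p = 0.00397, edgeR), called in 2 of the 12 fits with 1 library left out. For freezing (FB) the interaction was called at 7 loci, all larger in HX58, with 1.02% of all genes in that direction and 0.577% in the other, and the median was 0.70. None was called in the other direction by edgeR, with 3 at an unadjusted p under 0.05 and 0 by DESeq2. On leaving out 1 library the 7 became 6 for HX58_MB3, 4 for HX17_FB1, HX17_FB3, HX58_FB2 or HX58_FB3, 2 for HX17_FB2 or HX17_MB1, 1 for HX17_MB2, HX17_MB3, HX58_FB1 or HX58_MB2, and 0 for HX58_MB1. DESeq2 called 58. The highest of the 7 was BnaA03g57330D (S16-3) with 1.91. After acclimation edgeR called no interaction for CA (0.114% of all genes higher and 0.0550% lower) or FA (0.114% and 0.116%), with 36 and 60 loci at an unadjusted p under 0.05 and 1 and 3 called by DESeq2.

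**Figure D3:**
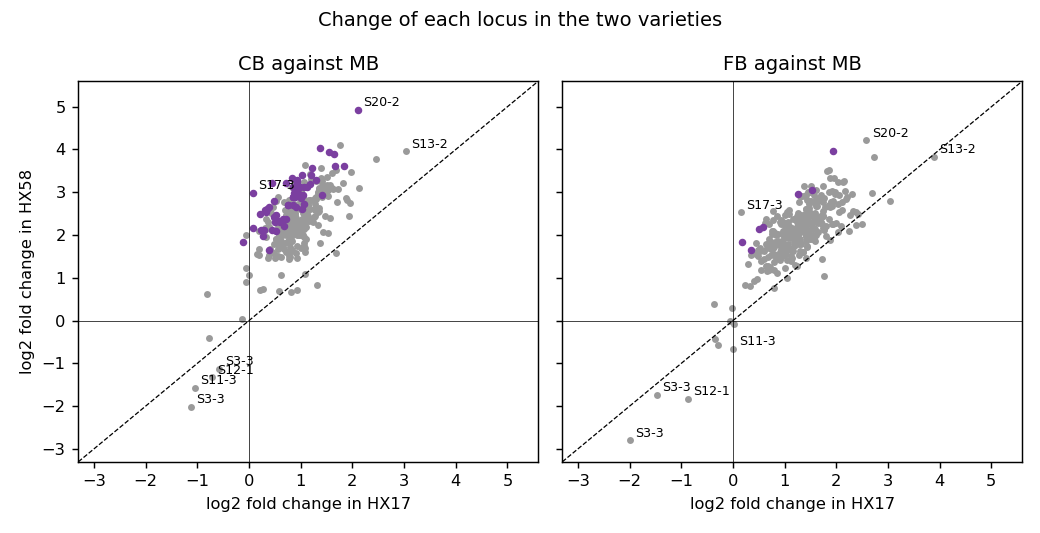
Log2 fold change against MB in HX17 (x axis) and HX58 (y axis) for each of the 315 loci, for CB (left) and FB (right); purple points were called for the difference between varieties, the dashed line marks equal change, and some loci carry their protein name. Most points lie above the line. Of the loci that carry their name, those of S3-3, S12-1 and S11-3 have negative changes in both varieties in CB. In FB only those of S3-3 and S12-1 do.

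The families moved together. In HX58_CB the median change of a cytosolic family ran from a log2 fold change of 1.74 (S3, 13 loci) to 2.92 (S9, 6 loci), and in 21 of the 32 families every locus was called higher. In HX58_FB it ran from 1.61 (S23) to 2.73 (S16), again with 21 families called throughout. In HX17_CB the range was 0.47 (S21) to 1.31 (S30), and in HX17_FB 0.87 (S23) to 1.93 (S30), where 5 families were called higher throughout. Even in S30, the highest family in HX17_CB, only 5 of the 12 loci were called there. Single loci in HX58_CB ran more widely than the family medians, from -2.01 to 4.93. S6, the protein that S6 kinase phosphorylates downstream of TOR, followed the rest with medians of 2.23 in HX58_CB and 1.01 in HX17_CB. The split of the summed FPKM over families shifted for some of them. S30 took 5.54% ± 0.22 (SD, n = 3) in HX58_MB and 7.06% ± 0.33 in HX58_CB, and 5.46% ± 0.18 in HX17_MB and 7.4% ± 0.69 in HX17_CB. S21 took 4.05% ± 0.16 in HX17_MB and 2.82% ± 0.13 in HX17_CB, and 3.10% ± 0.14 in HX58_MB and 2.54% ± 0.071 in HX58_CB. S23, which lies at the decoding centre, took 3.45% ± 0.26 in HX58_MB and 2.75% ± 0.11 in HX58_CB, and 4.07% ± 0.26 in HX17_MB and 3.39% ± 0.25 in HX17_CB. These shares were not tested.

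**Figure D4:**
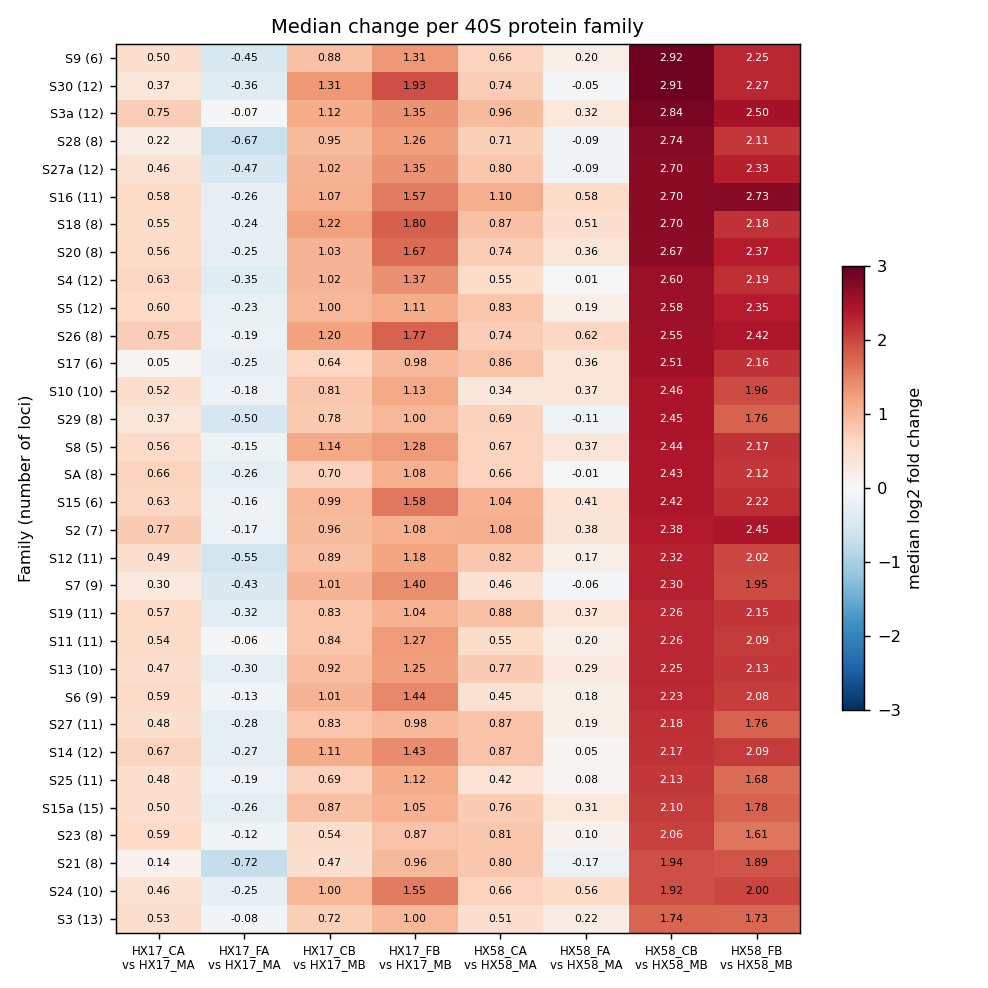
Median log2 fold change of the loci in each of the 32 cytosolic 40S families (rows, with the number of loci) in the 8 comparisons of a cold group with its control (columns), coloured from blue (lower) to red (higher). HX58_CB and HX58_FB are red in every row, from 1.74 to 2.92 and from 1.61 to 2.73.

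The subgenomes had similar medians, while their counts of called loci differed in some comparisons. In HX58_CA 16 A and 7 C loci were called higher, with medians of 0.75 and 0.73. Between the varieties in MA 31 A and 16 C loci were called lower in HX58, with medians of -0.63 and -0.70. In HX58_CB 155 of the 164 A loci and 141 of the 151 C loci were called higher, with medians of 2.44 and 2.32, and in HX17_FB 106 and 103 were, with medians of 1.26 and 1.25. Across the 315 loci the changes of the varieties ran in parallel (Pearson r = 0.71 between HX17_CB and HX58_CB, and 0.79 between HX17_FB and HX58_FB), a description over loci, which share their libraries and are not independent. Coding length bore no such relation to the change in HX58_CB (r = 0.01), and the log2 mean level a weak one (r = 0.27).

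A small set of loci stood outside the common rise; S12-1, S16 and S15a-1 were singled out after their values were seen. In HX58 19 members were not called higher in CB and 18 in FB. Of the 7 mitochondrial loci 3 were called higher in CB and 3 in FB, and of the 3 S15a-1 loci BnaC07g09710D was called higher in CB and none in FB. Those called lower were 2 loci of S3-3, a copy of the protein at the entry of the mRNA channel, and the only locus of S12-1. BnaC02g28200D (S3-3; C02, 26649189 to 26649959) stood at 36.2, 33.4 and 19.0 FPKM in HX58_MB, 13.7, 2.28 and 7.15 FPKM in HX58_CB and 4.06, 4.36 and 4.26 FPKM in HX58_FB. The FB libraries lay below every MB library (log2 fold change -2.80, SE 0.26, adjusted p = 6.34e-05, edgeR), and in HX17_FB the fall was -1.99 (adjusted p = 0.00217, edgeR; called in 2 of 6 fits with 1 library left out). In CB it missed the threshold in both varieties (-2.01, adjusted p = 0.00688 in HX58 and -1.12, adjusted p = 0.0397 in HX17, edgeR).

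The second S3-3 locus, BnaCnng78200D (unplaced C scaffold, 79774264 to 79775200), had 28.3, 23.7 and 15.3 FPKM in HX58_MB and 6.19, 6.95 and 7.02 FPKM in HX58_FB (log2 fold change -1.74, SE 0.24, adjusted p = 0.000465, edgeR). It was also called lower in HX58_CA (-1.93, adjusted p = 0.00354), a call that no fit with 1 library left out kept. Of the other S3-3 loci 5 were called higher in HX58_FB, led by BnaA04g18190D. This locus (A04, 14644877 to 14646392) had 7.0, 7.85 and 6.39 FPKM in HX58_MB and 66.2, 59.6 and 43.6 FPKM in HX58_FB (log2 fold change 2.96, SE 0.18, adjusted p = 1.76e-05, edgeR). In the 8 comparisons of a cold group with its control, S3-3 was the only name of the 56 with loci called in opposite directions. The coding lengths of the loci that fell, 249 and 312 bases, were shorter than the 750 bases of BnaA04g18190D. With counts summed over every S3-3 locus, also those outside the count rule, the log2 fold change was 1.31 in HX58_FB and 0.84 in HX17_FB. Both were opposite in sign to the 2 loci that fell.

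The S12-1 locus BnaA09g18660D (A09, 11594108 to 11594605) had 13.6, 11.6 and 14.4 FPKM in HX58_MB, 7.06, 3.87 and 5.74 FPKM in HX58_CB and 3.77, 4.14 and 3.66 FPKM in HX58_FB. Every MB library was above every CB and FB library, and CB and FB overlapped. The log2 fold changes were -1.32 in CB (adjusted p = 0.00395, edgeR, a call that no fit with 1 library left out kept) and -1.82 in FB (SE 0.25, adjusted p = 0.0005). In HX17 it missed the threshold in both (-0.72, adjusted p = 0.0447 and -0.88, adjusted p = 0.0570). The other 10 loci of the family, all S12-2, were called higher in HX58_CB and in HX58_FB. The single S16 locus BnaA02g04070D (A02, 1830294 to 1832192) also differed from its 10 S16-3 relatives. It stood at 46.0, 42.0 and 48.2 FPKM in HX58_MB, 48.6, 25.3 and 35.1 FPKM in HX58_CB and 25, 26.9 and 41.6 FPKM in HX58_FB, and was called in neither. Its highest libraries were those of HX58_FA, 141, 119 and 137 FPKM, against 35.4, 48.0 and 41.4 FPKM in HX58_CA (log2 fold change 1.56, adjusted p = 5.04e-05, edgeR).

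Among the S15a copies, BnaA09g49260D (S15a-1; A09, 32811666 to 32812265) had 85.6, 101 and 110.4 FPKM in HX17_MB and 118, 136 and 92.8 FPKM in HX17_CB, which overlapped (log2 fold change 0.00). BnaCnng38910D, also S15a-1, was lower in HX17 than in HX58, with 13.1, 12.3 and 11.3 FPKM in HX17_MB and 127, 146 and 85.5 FPKM in HX58_MB. Summed over its 3 loci, the S15a-1 share of the read counts on all S15a members was 31.2% in HX58_MB and 11.8% in HX58_CB, and 17.4% and 10.1% in HX17.

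**Figure D5:**
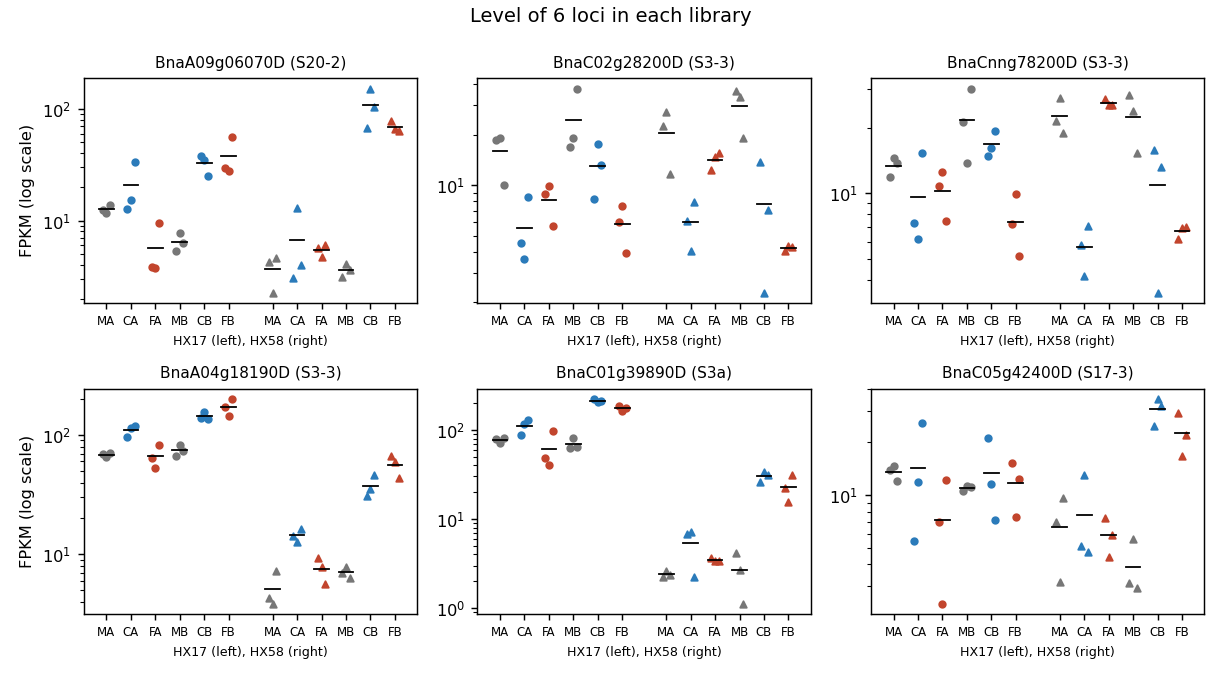
FPKM (log scale, y axis) of 6 loci in each library of the 12 groups (x axis; HX17 circles, HX58 triangles; grey controls, blue 4 °C, red -4 °C; bars are means of 3 libraries). The S20-2 locus is highest in HX58_CB with 67.6, 151 and 104, BnaC02g28200D and BnaCnng78200D (S3-3) are lower in FB than in MB, and the S3a locus is lower in HX58 than in HX17 throughout.

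At 2 low loci single libraries decided the value. BnaC01g39070D (S23-2; C01, 37836938 to 37838370) stood at 3.50, 68.6 and 3.63 FPKM in HX17_CA and at 1.43, 54.6 and 0.888 FPKM in HX58_CA, so replicate 2 was far above the others in both varieties. Its log2 fold changes against MA were 2.96 in HX17 (adjusted p = 0.114, edgeR) and 4.33 in HX58 (adjusted p = 0.0499), and without those libraries they were at most 0.12 and 0.25. BnaA10g10820D (S30; A10, 9194411 to 9195123) varied within nearly every group, for example 2.42, 28.6 and 95.7 FPKM in HX17_FA and 7.6, 80.6 and 14.7 FPKM in HX58_CB, and was called in no comparison (lowest adjusted p = 0.0338 in HX58_CA, edgeR).

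To see which loci followed the common course, the log2 mean FPKM of each over the 12 groups was correlated with the median profile of all members. Pearson's r was above 0.9 for 229 of the 315 loci and under 0.5 for 20, with a median of 0.96. The closest were BnaC06g18420D (S27a-3), BnaC09g41680D (S7-3) and BnaA02g08530D (S30), each with r of at least 0.995, and the least alike were BnaC02g28200D (S3-3, r = -0.65), BnaA02g04070D (S16, r = -0.61) and BnaA09g18660D (S12-1, r = -0.56). The loci share libraries and the profile contains them, so these are descriptions. For BnaC09g41680D the level was 45.0, 67.0 and 51.9 FPKM in HX17_MB, 176, 171 and 140.1 FPKM in HX17_CB, 45.9, 46.5 and 44.8 FPKM in HX58_MB and 308, 473 and 389 FPKM in HX58_CB. It shows the common course in 1 locus: both cold groups were above their controls, and that of HX58 was the highest.

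The partners of the 40S proteins in translation were taken from lists by Swiss-Prot name, with loci of at least 10 counts everywhere. Of 458 loci of the 60S subunit, which pairs with the 40S subunit, 435 were called higher in HX58_CB and 164 in HX17_CB, with median log2 fold changes of 2.46 and 0.98. The 40S to 60S ratio of summed counts lay between 0.543 and 0.620 in all 36 libraries. Within that range it was lower in CB and in FB than in MB without overlap. It was 0.559 to 0.565 in HX58_CB against 0.591 to 0.614 in HX58_MB, and 0.543 to 0.552 in HX17_CB against 0.567 to 0.579 in HX17_MB. In FB it was 0.563 to 0.573 in HX58 and 0.550 to 0.565 in HX17. The ratio was also lower in HX58_CA, 0.563 to 0.575, than in HX58_MA, 0.595 to 0.620. The other acclimated groups overlapped MA. All 9 loci of RACK1, a scaffold protein that sits on the 40S head, were called higher in HX58_CB (median 2.61). In HX17_CB edgeR called 0 of them (median 0.82), with 9 fitted higher at an unadjusted p under 0.05 and 0 called by DESeq2. Of 112 ribosome assembly loci 84 were called higher in HX58_CB (median 2.26) and 30 in HX17_CB (median 0.93). Of 135 loci of translation initiation 75 and 13 were called higher, with medians of 1.29 and 0.36, and of 45 loci of elongation 32 and 2, with medians of 1.40 and 0.58. Of 141 chloroplast ribosomal loci 77 were called higher in HX58_CB and 9 in HX17_CB (medians 1.46 and 0.69), and of 46 mitochondrial ribosomal loci 33 and 12 (medians 1.79 and 0.93). The 16 loci of TOR and S6 kinase, which drive ribosomal protein synthesis and S6 phosphorylation, were called lower at 5 loci in HX58_CB and at 4 in HX17_CB, with medians of -0.60 and -0.24. Of all genes tested 11.8% were called lower in HX58_CB and 8.19% in HX17_CB, and the counts of loci called higher stand against 14.2% and 5.98%.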

How the data were processed

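RNA was sequenced from leaves of 36 seedling samples, 3 per group. Per the labels and the study's methods, the authors aligned reads with HISAT2 2.0.4 to the Genoscope B. napus genome and counted them per gene with HTSeq 0.9.1. For the genome version and the strand setting: not given in the sources used here. All tests used the deposited read counts. The FPKM values, also deposited by the authors, are the counts divided by gene length and library total and served only to show levels. The deposited gene length came in the same table. The authors' own fold changes and p-values were not used. Counts do not separate copies of near-identical sequence. Depth was 32214015 to 59290772 counts per library, and no 2 libraries were identical.

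Each comparison was fitted on its own libraries with edgeR 4.0.16 in R 4.3.3 (TMM factors, filter at a count of 10 and a total of 15, quasi-likelihood test), p-values were adjusted over all genes tested, and a locus was called when it changed at least 2-fold with adjusted p below 0.005. The SE is the log2 fold change divided by the square root of F. The test was tried on simulated data first. The study's methods name 3 biological replicates per group, while its results call the 3 technical replicates. Neither says whether a sample pools several plants, so p-values measure the spread between these samples. DESeq2 1.42.0, other scalings, filters, thresholds, controls, summed names, a block for the replicate number and the omission of each library were alternatives. The members and lists were chosen with earlier results of these data known. Named loci are the 5 highest and the lowest by level, the first 2 in each direction of each treatment comparison, the first in each direction of the others, names with opposite calls, the loci at the edge of the rule, and the 3 most and least like the median profile; not all are described in full. Gene lists (ribosomal proteins, translation factors, and markers of mesophyll, endodermis, phloem, epidermis, dividing cells, senescence and cold) were taken by Swiss-Prot text. The profile used log2 (FPKM + 0.01).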

Additional observations from a re-analysis of the deposited data

Results flagged for a closer look

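The change from MB to CB differed between the varieties at 59 loci by the interaction term in edgeR, all with the larger change in HX58. The largest was BnaC05g42400D (S17-3), with a log2 difference, HX58 minus HX17, of 2.92. For FB the interaction was called at 7 loci, again all larger in HX58. Both counts depend on single libraries, as given with the comparison of the varieties, and what lies behind the differences was not tested.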

How the results depend on the processing

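Counts of called 40S loci in HX58_CB and HX58_FB kept within 1.5 times of their value under every alternative run, and so did all 20 counts under RLE scaling and under TMM factors without translation genes. With 1 model of all libraries the counts were 3 (HX17_CA), 4 (HX17_FA), 122 (HX17_CB), 61 (HX17_FA against CA), 80 (HX58_CA), 100 (varieties in MA) and 110 (variety by CB). DESeq2 gave 7 (HX17_CA), 5 (HX17_FA), 15 (HX17_FA against CA), 1 (HX17_FB against CB), 4 (HX17_MB against MA), 75 (HX58_CA), 11 (HX58_FA), 2 (HX58_FB against CB), 1 (HX58_MB against MA), 95 (varieties in MA), and 1, 3, 198 and 58 for variety by CA, FA, CB and FB. At an adjusted p under 0.05 (edgeR) with no fold limit they were 18 (HX17_CA), 11 (HX17_FA), 252 (HX17_CB), 37 (HX17_FA against CA), 4 (HX17_FB against CB), 7 (HX17_MB against MA), 162 (HX58_CA), 60 (HX58_FA), 209 (HX58_FA against CA), 5 (HX58_FB against CB), 1 (HX58_MB against MA), 142 and 164 (varieties in MA and MB), and 2, 5, 245 and 84 for variety by CA, FA, CB and FB. Without the filter on low counts they were 3 (HX17_FA), 2 (HX17_FA against CA), 60 (HX58_CA), 10 (HX58_FA), 1 (HX58_MB against MA), 108 (variety by CB) and 12 (variety by FB). With the other control group they were 20 (HX17_CA), 15 (HX17_CB), 100 (HX17_FB), 104 (HX58_CA), 12 (HX58_FA), 1 (variety by CA) and 16 (variety by CB). With counts summed over Swiss-Prot names they were 0 (HX17_FA against CA), 14 (HX58_CA), 0 (HX58_FA), 10 (HX58_FA against CA), 0 (HX58_FB against CB), 7 and 5 (varieties in MA and MB), 36 (variety by CB) and 0 (variety by FB). The cause of these shifts was not tested, except that a looser threshold admits more loci by construction.

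Leaving out 1 library at a time gave 0 to 0 for HX17_CA, HX17_FB against CB, HX17_MB against MA, HX58_FB against CB and variety by CA, 0 to 1 for HX17_FA, HX58_MB against MA and variety by FA, and 0 to 2 for HX17_FA against CA. It gave 2 to 81 for HX17_CB, 69 to 218 for HX17_FB, 1 to 15 for HX58_CA, 0 to 12 for HX58_FA, 266 to 300 for HX58_CB, 285 to 298 for HX58_FB, 32 to 44 for HX58_FA against CA, 26 to 49 and 39 to 67 for the varieties in MA and MB, 4 to 115 for variety by CB and 0 to 6 for variety by FB. In the 16 comparisons of 2 groups, the 48 correlations of same-numbered deviations lay between -0.34 and 0.18, and no comparison had all above 0.1. The varieties were compared in this way only in MA and MB. Pairing by replicate number between the varieties in CA, FA, CB or FB was therefore not tested. Replicate 2 stood apart in both CA groups at BnaC01g39070D. With the replicate number as a block the counts were 130 (HX17_FB), 2 (HX17_FA against CA), 4 (HX58_CA), 0 (HX58_FB against CB), 25 (varieties in MA), 25 (variety by CB) and 1 (variety by FB).

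Of the values of single loci under the alternatives, 1184 kept direction and call, 96 passed the threshold only there, 69 no longer passed, and 7 turned round, all with summed names: BnaC02g28200D became 0.84 in HX17_FB and 1.31 in HX58_FB, BnaCnng78200D 0.26 in HX58_CA and 1.31 in HX58_FB, BnaAnng13180D 0.81 in HX58_CA, BnaA05g27160D -0.79 between varieties in MA, and BnaC09g10020D -0.51 in MB. Summing merges a locus with its copies by construction. Low loci limit the depth, since a member may have only 10 counts in a library.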
